A study of Homo sapiens with 10 samples.

Results

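The 33 genes described here encode the enzymes that build cholesterol and its isoprenoid precursors, the SREBP transcription factors with the proteins that hold or release them, and enzymes of fatty acid synthesis that SREBPs are known to induce. They were taken as a list of gene symbols, and all 33 were found among the 57993 symbols of the tables. All 33 also passed the filter on low values that left 17779 genes for testing. By role they are 8 enzymes of the mevalonate pathway, 11 enzymes of the sterol branch, 5 SREBP factors and regulators, 2 sterol transport proteins and 7 fatty acid enzymes.

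The cells were HCT116, a line from a human colorectal carcinoma, in 4 groups with 10 RNA libraries in all. KDM5A-/- cells carried a plasmid for a mutant KDM5A (KO + mutant, 2 libraries), a plasmid for wild-type KDM5A (KO + wild type, 3 libraries) or an empty vector (KO + empty vector, 3 libraries), and parental HCT116 cells carried the empty vector (parental + empty vector, 2 libraries). KDM5A demethylates histone H3 at lysine 4, and the series title is about how SMYD2 methylates KDM5A. In every group, cells positive for GFP were sorted 24 h after transfection. Both lines were bought from a supplier, and the labels give G418 in the medium of the knockout cells alone, so genotype, line and G418 cannot be told apart in the comparison of knockout with parental cells. The labels do not name the mutation, and no library was made from parental cells with a KDM5A plasmid. Separate cultures are not stated for the libraries within a group, and p-values therefore cover only the spread among these libraries, which may be technical.

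Cholesterol is made from acetyl-CoA. The mevalonate pathway turns acetyl-CoA into isoprenoid diphosphates, which also feed protein prenylation, dolichol and ubiquinone, and the sterol branch joins them into squalene, closes the rings and trims the product to cholesterol. The SREBP proteins are made as membrane-bound precursors in the endoplasmic reticulum, where SCAP escorts them and INSIG proteins retain them when sterols are plentiful. When sterols run low they are carried to the Golgi, cleaved, and move to the nucleus, where the product of SREBF2 mainly drives cholesterol genes and that of SREBF1 mainly fatty acid genes.

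The 5 members of smallest adjusted p among those with a promoter entry were chosen to show the sequence upstream of the genes on which the comparisons turn. Each sequence is the RefSeq GRCh38.p14 window from 250 bases before to 50 bases after the annotated start, 5′ to 3′ on the strand of the gene. HMGCS1 lies at chr5:43313363-43313662 on the minus strand, FDPS at chr1:155308616-155308915 on the plus strand, MVD at chr16:88663042-88663341 on the minus strand, MSMO1 at chr4:165327419-165327718 on the plus strand and SREBF1 at chr17:17836937-17837236 on the minus strand. Capitals mark the CCAAT box, bound by NF-Y, a known partner of SREBPs, and the GC box GGGCGG, bound by SP1, each on either strand (ATTGG and CCGCCC are the reverse complements).
HMGCS1: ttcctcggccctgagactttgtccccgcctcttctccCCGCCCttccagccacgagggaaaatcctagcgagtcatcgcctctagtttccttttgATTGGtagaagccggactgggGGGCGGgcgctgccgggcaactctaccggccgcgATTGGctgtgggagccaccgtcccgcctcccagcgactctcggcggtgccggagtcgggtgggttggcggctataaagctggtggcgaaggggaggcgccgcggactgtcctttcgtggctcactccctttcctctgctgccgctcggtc
FDPS: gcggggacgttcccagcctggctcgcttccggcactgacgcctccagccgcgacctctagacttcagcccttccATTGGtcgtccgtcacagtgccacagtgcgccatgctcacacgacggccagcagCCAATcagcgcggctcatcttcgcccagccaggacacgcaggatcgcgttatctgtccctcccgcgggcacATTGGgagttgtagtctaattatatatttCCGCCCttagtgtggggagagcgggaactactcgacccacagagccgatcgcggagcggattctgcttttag
MVD: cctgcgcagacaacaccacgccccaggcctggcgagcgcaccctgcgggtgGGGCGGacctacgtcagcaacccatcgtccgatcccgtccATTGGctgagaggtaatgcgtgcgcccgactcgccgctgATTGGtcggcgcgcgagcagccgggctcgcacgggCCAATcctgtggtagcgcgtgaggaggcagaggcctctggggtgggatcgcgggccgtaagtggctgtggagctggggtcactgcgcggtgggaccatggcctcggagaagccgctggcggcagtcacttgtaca
MSMO1: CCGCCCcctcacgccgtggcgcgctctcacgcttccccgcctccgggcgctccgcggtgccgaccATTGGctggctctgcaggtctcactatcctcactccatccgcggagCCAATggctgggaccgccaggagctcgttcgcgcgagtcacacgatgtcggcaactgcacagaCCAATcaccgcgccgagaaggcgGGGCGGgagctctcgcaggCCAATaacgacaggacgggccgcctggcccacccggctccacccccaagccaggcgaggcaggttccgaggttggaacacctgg
SREBF1: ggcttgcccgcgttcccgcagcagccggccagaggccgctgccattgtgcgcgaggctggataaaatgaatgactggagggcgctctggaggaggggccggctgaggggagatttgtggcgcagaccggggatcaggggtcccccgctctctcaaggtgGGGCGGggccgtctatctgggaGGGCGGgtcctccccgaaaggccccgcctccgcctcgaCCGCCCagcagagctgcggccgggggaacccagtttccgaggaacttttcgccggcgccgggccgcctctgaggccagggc
The HMGCS1 window held CCAAT boxes at -155 and -100 from the start, FDPS held 3 (at -176, -122 and -51), MVD held 3 (at -159, -120 and -85) and MSMO1 held 4 (at -185, -139, -76 and -34). The SREBF1 window held no CCAAT box and 3 GC boxes, at -91, -69 and -31. None of these 5 windows held the sterol regulatory element core CACCCCAC, its relaxed form CACNCCAC or the E-box CACGTG.

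RefSeq entries were matched by symbol for 29 of the 33 members, with 41 windows in all, and ACAT2, FDFT1, SQLE and FASN had no entry. CCAAT was present on either strand in 26 of the 41 windows (63.4%), against 34.7% of 14933 windows of tested genes and 34.6% of all 35116 windows of this length. GGGCGG was present in 35 of 41 (85.4%), against 65.7% and 45.0%. CACNCCAC, which includes every CACCCCAC, was present in 7 windows of 6 members (17.1%), against 5.87% of windows in both sets, and CACGTG in 5 windows (12.2%), against 9.18% and 7.26%. CACCCCAC itself was found in SREBF2 alone among the members. These shares describe letters in a 300 base window and show no binding.

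Values below are linear FPKM-type values after scaling of each library (scaled values), and log2 fold changes are of the scaled value plus 1. They were tested with limma, with Benjamini-Hochberg adjustment over all 17779 genes, and passing means an adjusted p under 0.05. The depth behind the values is unknown, because the deposited values of each library had been brought to a common total. The scaling factors ran from 0.844 to 1.11. Cytosolic ribosomal protein genes took 15.6% and 16.1% of the summed values in the KO + mutant libraries, 13.1% to 13.7% in KO + wild type, 12.7% to 13.4% in KO + empty vector, and 14.01% and 16.24% in parental + empty vector, so both KO + mutant libraries and parental library 2 stood apart. KDM5A itself was at 23346 and 22816 in KO + mutant, 13452 to 16237 in KO + wild type, 12.2 to 15.3 in KO + empty vector, and 13.3 and 17.7 in parental + empty vector. This gene-level value therefore separated plasmid from empty vector and did not separate knockout from parental cells (log2 fold change -0.20, adjusted p = 0.391), and no value per exon was analysed here. All 8 epithelial markers were above 0 in every library, with summed values of 5622 and 6132 in KO + mutant, 4900 to 5165 in KO + wild type, 4650 to 4700 in KO + empty vector, and 4421 and 4988 in parental + empty vector. The 5 blood and immune markers summed to 5.34 and 6.59 in KO + mutant, 4.46 to 5.18 in KO + wild type, 1.76 to 2.85 in KO + empty vector, and 2.39 and 2.37 in parental + empty vector, with 0 to 3 of them at 0 in a library. The 5 fibroblast markers, nearly all COL1A1, summed to 13.6 and 15.0 in KO + mutant, 17.5 to 24.4 in KO + wild type, 20.2 to 28.8 in KO + empty vector, and 22.3 and 14.9 in parental + empty vector, with 2 to 4 of them at 0. The 3 endothelial markers ran from 0.236 to 1.42 over the 10 libraries.

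The members were detected at levels that differed widely. Over the 10 libraries 15 members averaged at least 100, 32 averaged at least 10, and 1, the sterol uptake transporter NPC1L1, averaged 1.46. The highest were SCD, the desaturase that makes oleate, at a mean of 959, and FASN, the fatty acid synthase, at 804. FDPS, which makes farnesyl diphosphate, came next among the members at 340, and FDFT1, the squalene synthase that commits farnesyl diphosphate to sterols, followed at 272. SREBF1 averaged 206 and SREBF2 lay between 145 and 173 in every library.

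**Figure D1:**
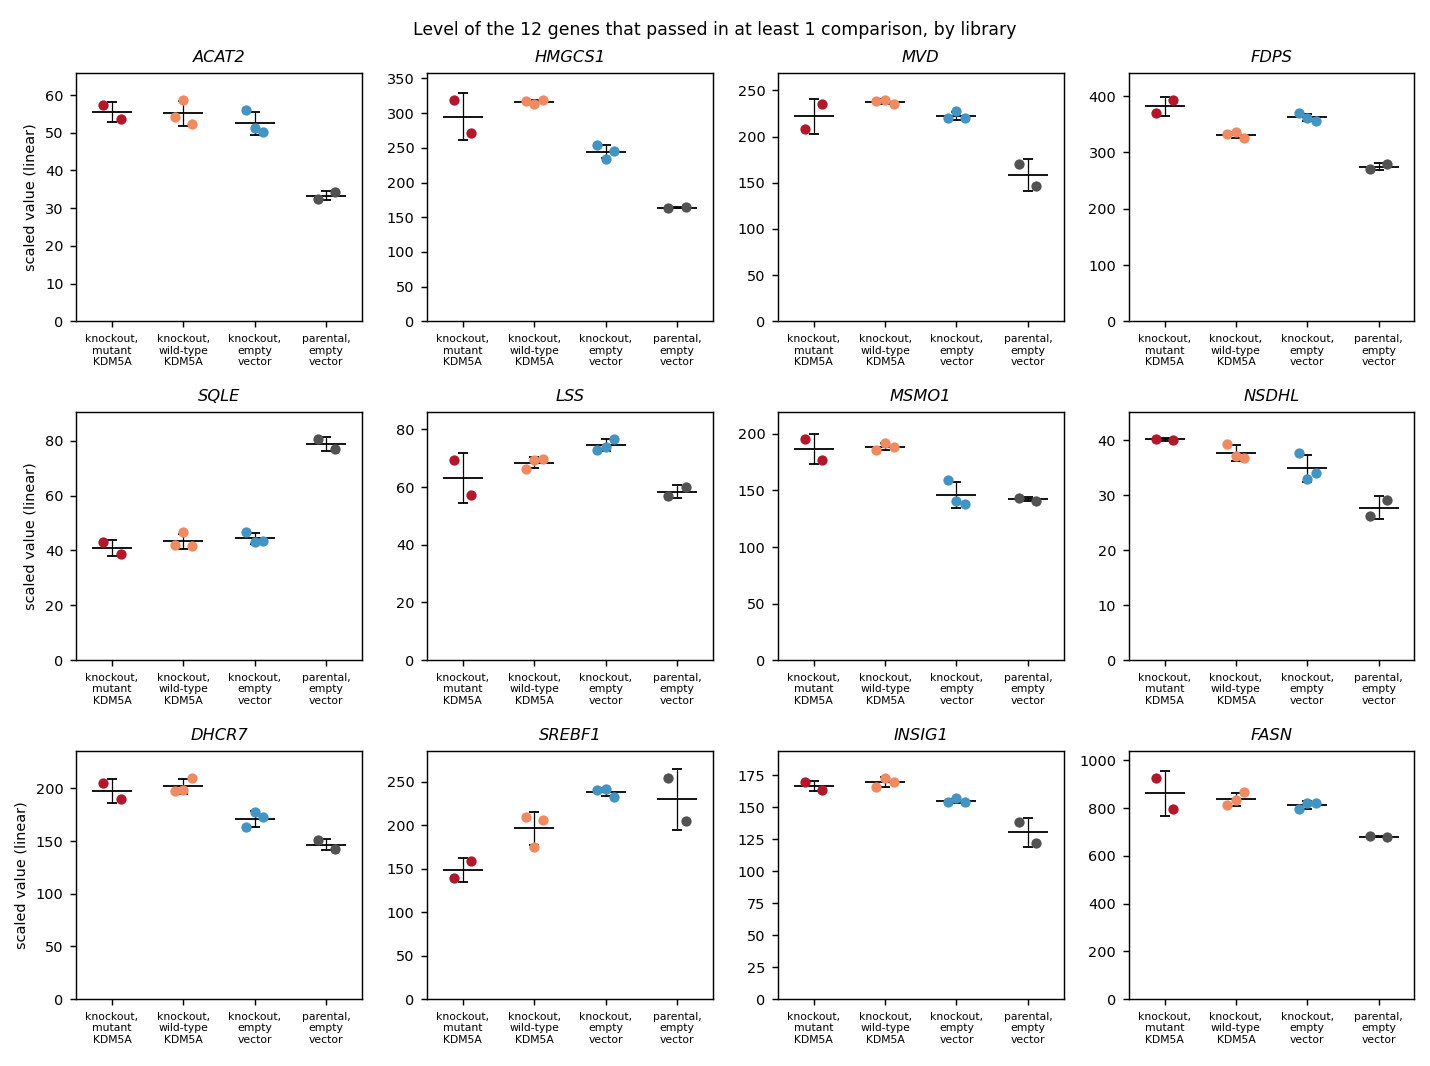
Scaled values, on linear axes that start at 0, of the 12 members that passed in at least 1 comparison, with 1 point per library in each of the 4 groups, a line at the group mean and bars of 1 SD. SQLE is high in the parental libraries, at 77.1 and 80.7, while ACAT2, HMGCS1 and FDPS are low there.

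Knockout cells with empty vector were compared with parental cells with empty vector to ask how the knockout line differs without a KDM5A plasmid. Of the 8 mevalonate enzymes 4 passed, all as higher in the knockout line, and these, FDPS, ACAT2, HMGCS1 and MVD, lay 1.32 to 1.56 times as high on the scale of the value plus 1. SQLE, squalene epoxidase, a rate-limiting enzyme of the sterol branch, went the other way and fell to 0.568 times the parental value. Over all members 8 passed as higher and 1 as lower, which is 27.3% of 33, against 8.94% of all genes tested (4.84% higher, 4.09% lower). Among the 11598 genes with a mean of at least 5, which all members but NPC1L1 reached, 1690 passed. That share is larger than over all genes and smaller than that of the members. The median log2 fold change of the members was 0.17, against 0.00 over all genes, and 25 of 33 were above 0. In bulk RNA, fewer cells with a transcript and less of it per cell cannot be told apart.

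ACAT2 (chr6:159760328-159779055, GRCh38), the thiolase that makes acetoacetyl-CoA at the head of the pathway, had scaled values of 56.0, 51.3 and 50.1 in KO + empty vector, against 32.4 and 34.2 in parental + empty vector. The groups did not overlap, and the log2 fold change was 0.64 ± 0.07 (SE; limma, adjusted p = 0.00189). The exons of ACAT2 share 26.5% of their length with SOD2 and 9.24% with TCP1 on the opposite strand, and the strand setting is not given in the sources used here, so reads of the 3 genes may be mixed. SOD2 (log2 fold change 0.05) and TCP1 (0.25) did not pass in this comparison.

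HMGCS1, the synthase that makes HMG-CoA, had 254, 235 and 245 in KO + empty vector, against 163 and 165 in parental + empty vector. The gap exceeded the spread of either group, with a log2 fold change of 0.57 ± 0.07 (SE; adjusted p = 0.00231). MVD, the decarboxylase that makes isopentenyl diphosphate, had 220, 227 and 220 in KO + empty vector, against 171 and 146 in parental + empty vector, a log2 fold change of 0.49 ± 0.07 (SE; adjusted p = 0.0056). Parental library 2 was the lower of the pair. FDPS had 370, 361 and 356 in KO + empty vector, against 270 and 280 in parental + empty vector, with a log2 fold change of 0.40 ± 0.05 (SE; adjusted p = 0.00231). The means of FDPS were 362 ± 6.66 (SD, n = 3) and 275 ± 6.62 (SD, n = 2). Of the other mevalonate enzymes, MVK (mevalonate kinase, log2 fold change 0.24, adjusted p = 0.0896), IDI1 (the isomerase, 0.21, adjusted p = 0.186) and PMVK (phosphomevalonate kinase, 0.14) did not pass, and their libraries did not overlap between the groups. GGPS1, which makes geranylgeranyl diphosphate for prenylation, was the member of this role with a negative value, -0.14, and its groups overlapped. Counting those that passed, 19 of all 33 members lay higher and 1 lower without overlap in this comparison. The share of all genes without overlap was not counted, so separate groups alone are no result about the members.

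In the sterol branch, SQLE (chr8:124998497-125022283, GRCh38) had 46.8, 42.9 and 43.5 in KO + empty vector, against 80.7 and 77.1 in parental + empty vector. It was the member with the smallest adjusted p of the comparison, with a log2 fold change of -0.82 ± 0.08 (SE; adjusted p = 7.69e-04). The enzymes on either side of it did not share this direction. FDFT1, which supplies squalene, had 278, 287 and 279 in KO + empty vector, against 240 and 255 in parental + empty vector (log2 fold change 0.18, adjusted p = 0.0691). LSS, which closes squalene epoxide to lanosterol, had 72.9, 73.9 and 76.8 in KO + empty vector, against 56.9 and 60.0 in parental + empty vector, a log2 fold change of 0.34 ± 0.08 (SE; adjusted p = 0.031). NSDHL, a dehydrogenase in the removal of methyl groups from the sterol ring, had 37.7, 32.9 and 34.1 in KO + empty vector, against 26.3 and 29.2 in parental + empty vector (0.32 ± 0.08, SE; adjusted p = 0.0349). Both sets of libraries stood apart for LSS and for NSDHL.

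DHCR7, the reductase of the last steps, had 163, 178 and 172 in KO + empty vector, against 151 and 143 in parental + empty vector. It missed the threshold with a log2 fold change of 0.22 ± 0.06 (SE; adjusted p = 0.0561). MSMO1, the methylsterol oxidase, had a log2 fold change of 0.04 and overlapping groups. The rest of the branch did not pass, and ran from -0.07 for TM7SF2 to 0.25 for EBP.

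Among the regulators, INSIG1, the retention protein that is itself an SREBP target, had 154, 157 and 154 in KO + empty vector, against 138 and 122 in parental + empty vector, and rose by a log2 fold change of 0.25 ± 0.06 (SE; adjusted p = 0.0312). SREBF1 had 241, 242 and 233 in KO + empty vector, against 255 and 205 in parental + empty vector. Its parental libraries lay on either side of the knockout ones, and the log2 fold change was 0.06 (adjusted p = 0.782). SREBF2 (0.07), SCAP (-0.04) and INSIG2 (-0.06) did not pass, and the groups overlapped for each.

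FASN had 795, 823 and 822 in KO + empty vector, against 684 and 678 in parental + empty vector, a log2 fold change of 0.26 ± 0.07 (SE; adjusted p = 0.0495). The groups were separate, but the adjusted p sat at the threshold. SCD (0.13), ACACA (acetyl-CoA carboxylase, 0.16) and ACLY (ATP citrate lyase, 0.17) also had all knockout libraries above the parental ones and did not pass. ELOVL6, the elongase of palmitate, was at 90.7 and 53.0 in the parental libraries, a spread that covers the 3 KO + empty vector libraries. STARD4, a carrier of cholesterol between membranes, had a log2 fold change of -0.004, and NPC1L1 of 0.19, neither past the threshold.

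The values for ACAT2, HMGCS1, FDPS and SQLE passed under every one of the 19 alternative settings run for this comparison. MVD lost its call under 1 of them, the ribosomal protein level as a covariate (0.34, adjusted p = 0.0856). Both parental libraries had a higher ribosomal share than every KO + empty vector library, so share and group cannot be told apart there. LSS, NSDHL, INSIG1 and FASN lost theirs under more: leaving out 1 library gave adjusted p-values up to 0.0988 for LSS, 0.122 for NSDHL, 0.134 for INSIG1 and 0.148 for FASN. With any 1 KO + wild type or KO + empty vector library left out, 5 members passed in place of 9. Over all 17779 genes 701 to 1137 passed in these fits, in place of 1589, so calls were lost generally.

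**Figure D2:**
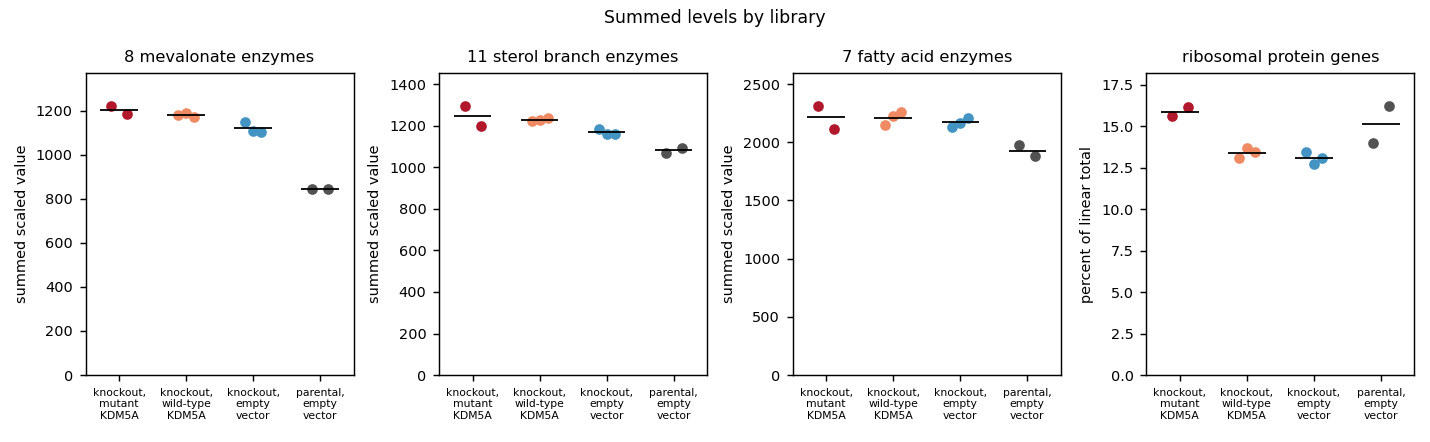
Summed scaled values of the mevalonate, sterol branch and fatty acid enzymes, with 1 point per library by group and a line at the group mean, beside the percent of the linear total taken by ribosomal protein genes. The mevalonate sum is 1106 to 1150 in KO + empty vector and 843 and 845 in parental + empty vector, a wider gap than in the sterol branch (1160 to 1187 against 1070 and 1094).

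Summed over the 8 mevalonate enzymes, the scaled value was 1150, 1107 and 1106 in KO + empty vector, against 845 and 843 in parental + empty vector. The sum over the 11 sterol branch enzymes was 1187, 1162 and 1160 in KO + empty vector, against 1070 and 1094 in parental + empty vector. The 7 fatty acid enzymes summed to 2134, 2165 and 2210 in KO + empty vector, against 1977 and 1880 in parental + empty vector. No library of one group reached the other in any of these 3 sums, which are weighted to their most abundant members and were not tested. The sums of the remaining roles did overlap. SREBP factors and regulators summed to 595 to 614 in KO + empty vector, against 607 and 519 in parental + empty vector. The sterol transport proteins summed to 50.9 to 55.2, against 56.1 and 50.5.

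Wild-type KDM5A was compared with empty vector within the knockout cells to ask what its plasmid changes. KDM5A RNA was at 13452 to 16237 with this plasmid, far above the 13.3 and 17.7 of parental + empty vector. No protein value was analysed here. HMGCS1, MSMO1 and DHCR7 rose by 1.18 to 1.30 times on the scale of the value plus 1, and no member fell. These are 3 of 33 members (9.09%), against 4.54% of all genes (2.52% higher, 2.02% lower), and the median over the members was 0.04, against 0.00 over all genes. All members but NPC1L1 averaged at least 10, while the 17779 genes include many lower ones. Among the 11598 genes with a mean of at least 5, 949 passed, a share close to that of the members. The count is therefore no result about the members. All comparisons with KO + empty vector share those 3 libraries, so they are not independent of one another. Of the markers of other cells, CD14 passed as higher with wild-type KDM5A (log2 fold change 1.11, adjusted p = 0.0143), at means of 4.25 in KO + wild type and 1.45 in KO + empty vector, and its part in the results was not tested.

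HMGCS1 had 318, 314 and 319 in KO + wild type, against 254, 235 and 245 in KO + empty vector. The wild-type libraries lay close together and above every empty vector library, with a log2 fold change of 0.37 ± 0.06 (SE; adjusted p = 0.0151). MSMO1 had 186, 192 and 189 in KO + wild type, against 159, 141 and 138 in KO + empty vector, a log2 fold change of 0.37 ± 0.06 (SE; adjusted p = 0.016). DHCR7 had 197, 198 and 210 in KO + wild type, against 163, 178 and 172 in KO + empty vector (0.24 ± 0.05, SE; adjusted p = 0.0443). None of the 3 overlapped between the groups. HMGCS1 was already higher in KO + empty vector than in parental cells, so its KO + wild type libraries were farther from the parental values of 163 and 165, a difference that was not tested. The 3 calls were not firm: none of the 3 genes passed when any 1 KO + wild type library, or KO + empty vector library 2 or 3, was left out, with adjusted p-values up to 0.0676 for HMGCS1, 0.0725 for MSMO1 and 0.156 for DHCR7.

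With the values as deposited 1 member passed, FDPS, as lower, where 123 of all genes passed as higher and 613 as lower. With quantile normalization HMGCS1 and MSMO1 passed as higher and FDPS and FDFT1 as lower, where 294 of all genes passed as higher and 320 as lower. In the main fit FDPS had 333, 336 and 326 in KO + wild type, against 370, 361 and 356 in KO + empty vector (log2 fold change -0.13, adjusted p = 0.137). SREBF1 had 209, 175 and 206 in KO + wild type, against 241, 242 and 233 in KO + empty vector. Every wild-type library lay below, but the spread among them left it short of the threshold (-0.28 ± 0.10, SE; adjusted p = 0.143). GGPS1 (-0.27), CYP51A1 (the demethylase of lanosterol, 0.15), SC5D (a sterol desaturase, 0.16) and FADS2 (a fatty acid desaturase, 0.25) had separate groups and did not pass. They were not alone in this. Counting those that passed, 11 of 33 members lay higher and 7 lower without overlap. The share of all genes without overlap was not counted, so the separation is no result about the members.

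Mutant KDM5A against empty vector, also within the knockout cells, asks the same of the mutant plasmid, with KDM5A RNA again far above the parental level. SREBF1 fell to 0.625 times the empty vector value on the scale of the value plus 1, and MSMO1, HMGCS1 and DHCR7 rose by 1.15 to 1.28 times. Together 4 of 33 members passed (12.1%), a smaller share than the 16.5% of all genes tested (9.48% higher, 7.05% lower), so the count is no result about the members. The median over the members was 0.06, against -0.01 over all genes. Both KO + mutant libraries also had the higher ribosomal protein shares and epithelial sums given above, and of the 8 epithelial markers 4 passed as higher in them (EPCAM, KRT8, KRT18 and KRT19) and none as lower. The other 4 did not pass, with log2 fold changes of 0.14 for CLDN7, -0.02 for CDH1, -0.14 for CLDN4 and -0.25 for CLDN3 (adjusted p = 0.0562). The blood marker CD14 passed as higher (1.34, adjusted p = 0.00605) and the fibroblast marker COL1A1 as lower (-0.70, adjusted p = 0.044). The part of these markers in the results was not tested. The ribosomal share was entered as the covariate below. Both KO + mutant libraries exceeded every KO + empty vector library in it, so share and plasmid cannot be told apart here.

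SREBF1 had 139 and 159 in KO + mutant, against 241, 242 and 233 in KO + empty vector. All 3 empty vector libraries were higher than both mutant ones by far more than the spread of either group, with a log2 fold change of -0.68 ± 0.11 (SE; adjusted p = 0.00684). With each library of this comparison left out in turn, the log2 fold change ran from -0.77 to -0.58. With the values as deposited it was -1.02, where the median of all genes was -0.30. With the ribosomal protein level of each library as a covariate it was -0.17 (adjusted p = 0.85), in a fit where 8 genes of 17779 passed for this comparison. SREBF1 shares 6.92% of its exon length with RAI1, which had a log2 fold change of -0.30 in this comparison and did not pass.

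MSMO1 had 196 and 177 in KO + mutant, against 159, 141 and 138 in KO + empty vector (log2 fold change 0.35 ± 0.07, SE; adjusted p = 0.0129). HMGCS1 had 319 and 271 in KO + mutant, against 254, 235 and 245 in KO + empty vector (0.27 ± 0.07, SE; adjusted p = 0.0319). DHCR7 had 205 and 190 in KO + mutant, against 163, 178 and 172 in KO + empty vector (0.20 ± 0.06, SE; adjusted p = 0.0498). Mutant library 1 was the higher of the pair for all 3 genes, and no mutant library overlapped the empty vector ones. Without mutant library 1 the log2 fold changes were 0.28 for MSMO1, 0.15 for HMGCS1 and 0.15 for DHCR7. Of 19 alternatives, MSMO1 passed under 14, HMGCS1 under 7 and DHCR7 under 4. HMGCS1 also lost its call without any 1 KO + wild type library, or without KO + empty vector library 2 or 3. DHCR7 lost its call without any 1 library of either group. Without 1 such library 1359 to 2371 of all genes passed, in place of 2939. The direction of the HMGCS1 and DHCR7 rises also depends on the scaling. With the values as deposited HMGCS1 was at -0.07, DHCR7 at -0.13 and MSMO1 at 0.01, while the median of all genes moved to -0.30. With quantile normalization they were at -0.01, -0.02 and 0.15, and none passed. As deposited 20 members passed, all lower, where 6615 of 17779 genes passed, 6149 of them lower. With quantile normalization 7 members passed, all lower, where 2110 genes passed, 1223 of them lower.

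None of the fatty acid enzymes passed with the mutant in the main fit, and their fold changes ran from -0.13 for ACACA to 0.20 for FADS1. These values too depend on the scaling. With quantile normalization SCD (-0.48), FASN (-0.43) and ACLY (-0.28) passed as lower. As deposited SCD (-0.33), FASN (-0.26), ACLY (-0.44) and ACACA (-0.47) did, where the median of all genes was -0.30. LSS had 69.4 and 57.1 in KO + mutant, against 72.9, 73.9 and 76.8 in KO + empty vector (-0.24, adjusted p = 0.0706). MVK (-0.17) and TM7SF2 (a sterol reductase, -0.27) were lower in both mutant libraries than in every empty vector library and did not pass. NSDHL (0.20), FADS2 (0.15), INSIG1 (0.10) and FDPS (0.075) were higher in both and did not pass either. Counting those that passed, 7 of 33 members lay higher and 6 lower without overlap. The share of all genes without overlap was not counted.

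**Figure D3:**
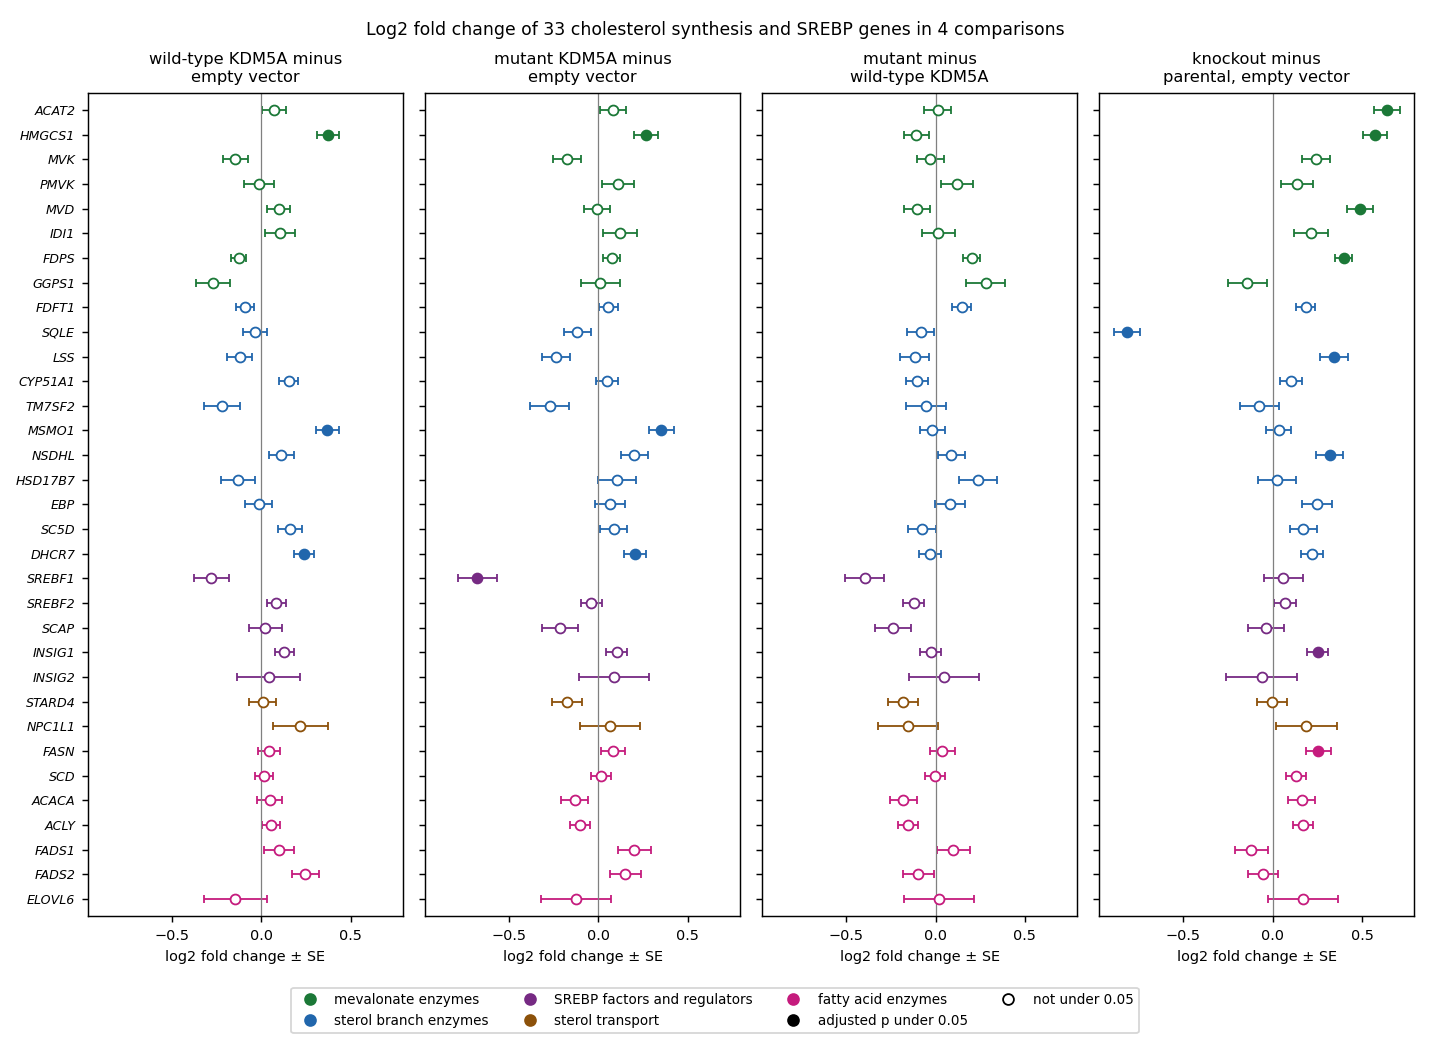
Log2 fold changes of the 33 members in the 4 comparisons, ordered and coloured by role, with bars of 1 SE and filled marks where the adjusted p is under 0.05. SREBF1 stands lowest with the mutant, at -0.68 against empty vector, and SQLE lowest in knockout against parental cells, at -0.82.

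Mutant and wild-type KDM5A were then set against each other, which asks whether the mutation alters the response. In both KO + mutant libraries, KDM5A RNA and the ribosomal protein share were above those of every KO + wild type library. Mutation, KDM5A level and ribosomal share therefore cannot be told apart in this comparison. No member passed, and neither did most genes: 10 of 17779 passed, or 0.0562% (0.0337% higher, 0.0225% lower). At an unadjusted p under 0.05 there were 3583 genes, of them 7 members, 3 higher and 4 lower. The 3 genes that rose with both plasmids had differences between plasmids with 95% intervals of -0.26 to 0.05 for HMGCS1, -0.18 to 0.14 for MSMO1 and -0.17 to 0.10 for DHCR7. Those intervals hold 0 and do not show that the plasmids act alike.

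SREBF1 had 139 and 159 in KO + mutant, against 209, 175 and 206 in KO + wild type. The groups did not overlap, and the log2 fold change of -0.40 (95% interval -0.64 to -0.15) did not pass (adjusted p = 0.108). FDPS had 370 and 394 in KO + mutant, against 333, 336 and 326 in KO + wild type, and again did not pass (0.20, adjusted p = 0.0944). Both passed when either parental library was left out of the shared fit, at adjusted p-values of 0.0376 to 0.042, though no parental library enters this comparison. In each of those fits 970 of all 17779 genes passed, in place of 10, so these 2 calls are no result about the members. With the values as deposited, 6 members passed, all lower, where 1496 genes passed, 1386 of them lower.

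**Figure D4:**
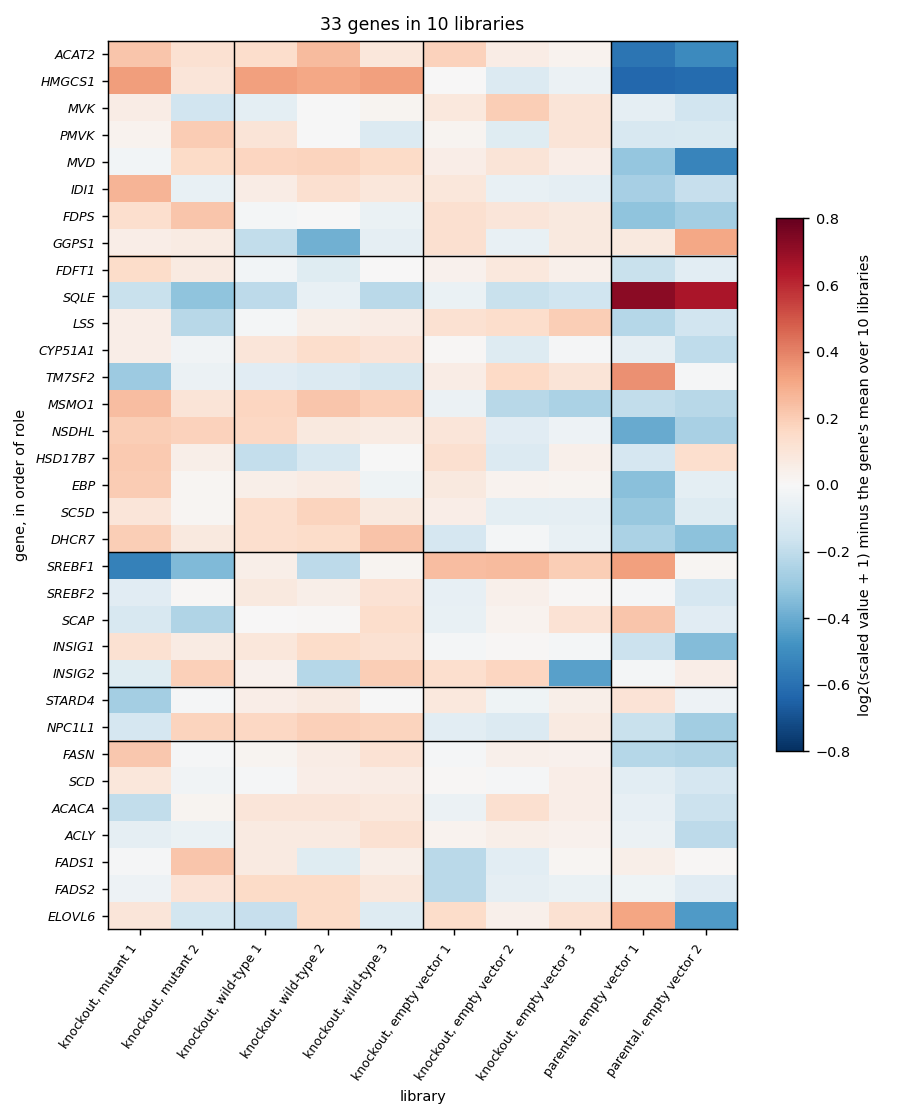
Each member's log2(scaled value + 1) in each of the 10 libraries, as its difference from the gene's mean over all libraries, ordered by role. The parental columns are low for most mevalonate enzymes and high for SQLE, and the KO + mutant columns are low for SREBF1.

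Across the 4 comparisons 12 members passed at least once and 21 did not. Those 21 were MVK, PMVK, IDI1 and GGPS1 of the mevalonate pathway, FDFT1, CYP51A1, TM7SF2, HSD17B7, EBP and SC5D of the sterol branch, SREBF2, SCAP and INSIG2 of the regulators, both transport proteins, and all fatty acid enzymes except FASN. HSD17B7, a ketosteroid reductase of the sterol branch, has a pseudogene, HSD17B7P2, at a mean of 7.60 against 40.0 for the gene, so its value may hold reads of the copy. GGPS1 shares 37.3% of its exon length with TBCE on the same strand, and FADS1 and FADS2 overlap each other.

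Further genes of sterol handling were taken from lists of other pathway members. Of 13 genes for SREBP cleavage and sterol-dependent degradation, 1 passed in any comparison: ERLIN1, part of the complex that degrades sterol-bound proteins of the endoplasmic reticulum, with 49.5 and 53.9 in KO + mutant, against 44.8, 45.6 and 42.0 in KO + empty vector (log2 fold change 0.22, adjusted p = 0.0442). With the values as deposited it was at -0.11. Of 16 tested further SREBP targets and sterol enzymes, MID1IP1, an activator of acetyl-CoA carboxylase, had 98.6 and 105 in KO + mutant, against 128, 130 and 125 in KO + empty vector, and fell with the mutant (-0.32, adjusted p = 0.0119) and with wild-type KDM5A (-0.26, adjusted p = 0.0346). ACSS2, which makes acetyl-CoA from acetate, fell with the mutant (-0.28, adjusted p = 0.0495). PCYT2, of phosphatidylethanolamine synthesis, rose in knockout against parental cells (0.35, adjusted p = 0.0122).

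Of 11 tested genes of LXR response, efflux, storage and lysosomal export, 3 rose with the mutant and none fell. SOAT1, which esterifies cholesterol for storage, had 23.8 and 20.3 in KO + mutant, against 16.8, 13.1 and 15.9 in KO + empty vector (0.50, adjusted p = 0.0257). NPC2, which hands lysosomal cholesterol to NPC1, had 227 and 171 in KO + mutant, against 138, 130 and 137 in KO + empty vector (0.54, adjusted p = 0.0307), and was at 157 and 209 in the parental libraries. With the ribosomal protein level as a covariate NPC2 was at -0.08. LIPA, the lysosomal acid lipase, rose by 0.30 (adjusted p = 0.0458) and was at -0.04 with the values as deposited. NPC1, the lysosomal export protein, was higher in knockout than in parental cells (0.37, adjusted p = 0.0417). Over all 5 lists, 61 genes were tested, and 7 rose and 4 fell with the mutant, 1 rose and 2 fell with wild-type KDM5A, 3 rose and 3 fell in knockout against parental cells, and none passed between the plasmids. These are 18.0% of the 61 for the mutant, 4.92% for wild-type KDM5A and 9.84% for knockout against parental cells, close to the 16.5%, 4.54% and 8.94% of all genes. Many of these calls were not firm: of 19 alternatives, ERLIN1 passed under 4, ACSS2 under 4, NPC1 under 5, LIPA under 6, NPC2 under 9, SOAT1 under 10, PCYT2 under 15 and MID1IP1 under 17 with the mutant (11 of 20 with wild-type KDM5A). Without mutant library 1, ACSS2 was at -0.14 (adjusted p = 0.258), NPC2 at 0.34 and LIPA at 0.20, and none of the 3 passed. NPC1 passed in 1 of the 5 fits that leave out a library of its own comparison, with adjusted p-values up to 0.215.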

How the data were processed

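RNA from 10 libraries of HCT116 cells was analysed. The authors deposited 1 table per library of log2 FPKM values for 60141 loci. The submitters' processing notes name GRCh38, Cufflinks 2.2.1, GATK 4.1.2, Picard and STAR 2.7.1a, with no role or order, and the strand setting and annotation are not given in the sources used here. The linear values (2 to the power of the deposited value, minus 1) were found to sum to nearly the same total in each library (999984 in KO + mutant library 1), so depth, and with it counting precision, is unknown.

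Values were summed by symbol, and each library was scaled by its median ratio to the genes' geometric means, using 13651 genes that reached 1 in all libraries. The filter required a scaled value of 1 or more in 2 or more libraries (17779 genes). limma 3.58.1 in R 4.3.3 (eBayes with trend) was fitted on log2(scaled value + 1), pseudocount 1, with 4 groups and all 10 libraries, 6 residual and 2.99 prior degrees of freedom. Tests were two-sided, adjusted by Benjamini-Hochberg over all genes in each comparison, at an adjusted p under 0.05. Scripts were tested on simulated data. Python 3.11.15, numpy 2.4.6, pandas 2.3.3 and matplotlib 3.10.9 were used.

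The members and lists were chosen with earlier results of these data known. Members that passed in at least 1 comparison are given by library, and up to 4 genes of smallest adjusted p per further list are named. Promoters are from RefSeq GRCh38.p14. Gene overlaps were read from GENCODE 29, with which 30 of the 33 members share start and end. Replicates were checked for identical values, and none were identical. Same-numbered samples did not deviate together, so the numbers were not taken to pair them. As alternatives, the fit was repeated on the values as deposited, with quantile normalization, a pseudocount of 0.1, no filter, a mean of at least 5, array weights, only the libraries compared, a replicate block, the ribosomal protein level as a covariate, leaving out the libraries that stood apart, and leaving out each library.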

Additional observations from a re-analysis of the deposited data

How the results depend on the processing

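The calls of ACAT2, HMGCS1, FDPS and SQLE in knockout against parental cells passed under all 19 alternatives, and those of MVD there and of SREBF1 with the mutant under 18, lost with the ribosomal covariate. Counts over all genes follow in brackets. Over the 16 member calls, 200 values kept direction and call, 103 kept direction and lost the call, and 4 turned. For wild-type KDM5A against empty vector, 3 members passed [807], and 1 did with the values as deposited [736], 6 with array weights [2101], 6 with only the libraries compared [1689] and 6 with both KO + mutant libraries and parental library 2 left out [1690], with medians of -0.066 as deposited (all genes -0.10), 0.003 with quantile normalization and 0.055 with the ribosomal covariate. For the mutant against empty vector, 4 passed [2939], and 20 did as deposited [6615], 7 with quantile normalization [2110], 2 without a filter [2155 of 38077], 1 with only the libraries compared [1838] and 0 with the ribosomal covariate [8], with medians of -0.27 (all genes -0.30) as deposited and -0.12 (all genes -0.03) with quantile normalization. For mutant against wild type, 0 passed [10], and 6 did as deposited [1496], with medians of -0.252 (all genes -0.20), -0.091 with quantile normalization and 0.015 with the ribosomal covariate. For knockout against parental cells, 9 passed [1589], and 5 did without a filter [1069 of 38077], 5 with only the libraries compared [464] and 4 with the ribosomal covariate [272], and the median was 0.24 as deposited (all genes 0.07). The cause of these shifts was not tested.

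Values that turned, all with the mutant against empty vector, were HMGCS1 (-0.074 as deposited, -0.005 with quantile normalization), DHCR7 (-0.134 and -0.02), ERLIN1 (-0.11 as deposited), LIPA (-0.035 as deposited), AKT1 (-0.094 as deposited) and NPC2 (-0.082 with the ribosomal covariate).

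With each library left out in turn, the members that passed numbered 0 to 3 for wild-type KDM5A, 2 to 6 for the mutant, 0 to 2 between the plasmids [970 without either parental library] and 5 to 11 for knockout against parental cells. The medians ran from 0.032 to 0.055, from 0.016 to 0.065, from -0.062 to 0.011 and from 0.139 to 0.17, in the same order. Without 1 KO + wild type or KO + empty vector library, 178 to 311, 1359 to 2371, 5 to 8 and 701 to 1137 of all genes passed, in that order.

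Replicate numbers shared between groups did not pair the samples: same-numbered samples correlated at -0.089 to 0.051 over 13 pairs, others at -0.08 to 0.092 over 24. With the replicate block, 2 members passed for the wild-type plasmid [214], 2 for the mutant [1109], 0 between the plasmids [1] and 5 for knockout against parental cells [556]. Fewer of all genes passed than in the main fit in each comparison.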

Other observations

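RPTOR, the subunit of the TORC1 kinase complex that presents substrates, was the gene of the further lists with the most calls. It had scaled values of 38.0 and 35.7 in KO + mutant, 40.8, 40.8 and 41.8 in KO + wild type, 52.7, 59.5 and 59.2 in KO + empty vector, and 32.7 and 31.9 in parental + empty vector. Its KO + empty vector libraries were above those of each other group. The log2 fold change was -0.62 for the mutant (limma, adjusted p = 0.00167) and -0.46 for wild-type KDM5A (adjusted p = 0.00626), each against empty vector, and 0.80 for knockout against parental cells (adjusted p = 4.93e-04). The 3 comparisons share the KO + empty vector libraries, which alone can give opposite signs. The mutant value did not pass with the ribosomal protein level as a covariate (-0.50, adjusted p = 0.453).

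Among the other 8 genes of the lipid signal list, AKT1 rose with the mutant (0.24, adjusted p = 0.0113) and fell in knockout against parental cells (-0.34, adjusted p = 0.00401), with 106 and 108 in KO + mutant, 89.6 to 91.4 in KO + empty vector, and 118 and 111 in parental + empty vector. FBXW7, which marks nuclear SREBP for degradation, rose with the mutant (0.46, adjusted p = 0.0178) and with wild-type KDM5A (0.44, adjusted p = 0.0305), calls that held under 12 of 19 and 11 of 20 alternatives. With a library of its own comparison left out it passed in 2 of 5 and 1 of 6 fits. PRKAA2, a catalytic subunit of AMPK, was near the filter, at 1.10 to 1.26 in KO + empty vector against 3.53 and 3.11 in parental + empty vector (-0.99, adjusted p = 0.00885). Of the 12 genes that use isoprenoids, the prenyltransferase subunit RABGGTB fell with the mutant (-0.39, adjusted p = 0.0208) and its partner RABGGTA fell in knockout against parental cells (-0.44, adjusted p = 0.0272). RABGGTB passed under 14 of 19 alternatives and RABGGTA under 8, and RABGGTA in none of the fits that leave out 1 of its 5 libraries (adjusted p up to 0.121).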
